A study of Mus musculus with 8 samples.

Results

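A set of 10 genes that mark reactive astrocytes or respond to stress were followed in the hypothalamus of young mice after a treatment that depletes microglia: Gfap, Lcn2, Osmr, Il33, Fam107a, Apod, Steap4, S1pr3, Cd109 and Aspg. They were 10 of the 55401 genes in the deposited table, matched by symbol, and each symbol matched 1 row. The set was selected from results that included the comparison of treatments in these same 8 libraries, so values and calls from that comparison describe the 10 genes and are no independent test of them. PLX3397 blocks CSF1R, the kinase receptor on which microglia depend for survival, and also acts on the related kinases KIT and FLT3.

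Pups were gavaged with vehicle (4 animals) or with PLX3397 (4 animals) from postnatal day 9 to day 15, and hypothalami were taken on day 19, 4 days after the last gavage. Each group held 2 females (F1 and F2) and 2 males (M1 and M2). The labels give neither strain, genotype nor dose, and their tissue field reads brain. Counts were compared over 8 hypothalami, so p-values measure the spread between these samples. The hypothalami are bulk tissue, so fewer cells of a type and less RNA per cell cannot be told apart.

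Astrocytes, the star-shaped glia that take up glutamate and support neurons, become reactive after injury or inflammation. They then make more of the filament protein GFAP and secrete acute-phase proteins, with microglial interleukin 1 alpha, tumour necrosis factor and C1q as known inducers and gp130 cytokines acting through STAT3 as another. Fam107a, by contrast, encodes an actin-associated protein known to be induced by stress and glucocorticoids. Il33 encodes an alarmin, a cytokine held in the nucleus and released on damage, which in the brain is made by astrocytes and oligodendrocytes.

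Promoters of 9 of the 10 genes were in the RefSeq tables of build GRCm38.p6, the assembly also called mm10. Those of Fam107a, Apod and Il33 are shown because these genes were the ones whose groups lay apart, and those of Gfap and Steap4 because each holds a GAS site, the letters that STAT factors bind. Each run reads 5′ to 3′ on the gene's strand and covers the 250 bases before the transcription start, and that of Gfap goes on to base 257 so as to complete its site. Fam107a is chr14:8309780-8310029 (minus strand), Apod chr16:31314809-31315058 (minus), Il33 chr19:29924863-29925112 (plus), Gfap chr11:102897194-102897450 (minus) and Steap4 chr5:7960222-7960471 (plus). Capitals mark a glucocorticoid response element palindrome in Fam107a and a GAS site in Gfap and Steap4.
Fam107a: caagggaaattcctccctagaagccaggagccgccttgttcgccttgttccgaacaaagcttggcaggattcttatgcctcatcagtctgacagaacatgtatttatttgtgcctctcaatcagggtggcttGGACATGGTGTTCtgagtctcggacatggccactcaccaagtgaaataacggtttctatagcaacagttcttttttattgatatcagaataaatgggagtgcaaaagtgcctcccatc
Apod: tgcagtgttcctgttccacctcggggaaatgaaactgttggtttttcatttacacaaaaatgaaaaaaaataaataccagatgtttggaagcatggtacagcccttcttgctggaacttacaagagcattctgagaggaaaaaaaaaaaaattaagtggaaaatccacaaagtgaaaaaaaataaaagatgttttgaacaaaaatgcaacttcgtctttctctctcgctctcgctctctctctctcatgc
Il33: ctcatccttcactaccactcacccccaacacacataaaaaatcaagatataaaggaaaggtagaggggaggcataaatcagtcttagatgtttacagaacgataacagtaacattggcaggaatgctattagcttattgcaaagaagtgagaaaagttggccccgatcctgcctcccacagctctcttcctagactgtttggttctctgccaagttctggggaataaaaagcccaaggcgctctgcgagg
Gfap: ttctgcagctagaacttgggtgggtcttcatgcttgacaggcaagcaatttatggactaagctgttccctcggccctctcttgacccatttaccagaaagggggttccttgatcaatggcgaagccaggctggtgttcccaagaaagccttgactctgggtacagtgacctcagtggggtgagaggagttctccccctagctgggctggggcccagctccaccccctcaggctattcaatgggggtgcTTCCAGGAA
Steap4: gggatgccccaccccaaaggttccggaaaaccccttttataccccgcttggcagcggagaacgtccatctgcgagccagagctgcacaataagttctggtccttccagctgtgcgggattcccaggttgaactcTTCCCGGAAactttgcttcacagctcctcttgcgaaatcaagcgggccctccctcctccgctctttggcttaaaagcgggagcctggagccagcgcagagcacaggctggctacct

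The glucocorticoid response element palindrome was searched on both strands in windows of 250 bases before and 50 after a start. It was present in 0.475% of the 32851 promoters of that length. Of the 9 genes only Fam107a held it, from base -118 relative to the start, and 2 of 15 genes on a list of glucocorticoid-responsive genes held it. The GAS site TTCNNNGAA was present in 8.30% of promoters and in 2 of the 9 genes, from base -116 in Steap4 and from base -2 in Gfap, where it spans the start. The AP-1 site TGANTCA (7.81% of promoters) was found in Osmr alone, a strict NF-kB site (0.411%) in 0 of 9 and a loose NF-kB pattern (50.8%) in 8 of 9, overlapping the GAS site of Gfap. The percentages count promoters, whereas a gene was counted if any of its promoters held the letters. The 9 genes had 12 promoters, so the 2 kinds of share are not alike. These are matches of letters and not measured binding.

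The summed level of 12 microglial markers was 321 to 333 CPM (a gene's counts scaled to the library total) in vehicle and 23.7 to 50.04 CPM in PLX3397 libraries, and 9 of the 12 fell (6 to 11 without 1 library each), with 3 of the 12 listed at 0 in PLX3397 M2. Total counts ran from 54115300 to 67487391. A list of 8 pituitary genes summed to 4090 CPM in vehicle F1 and to 27.5 to 39.9 CPM in the other 7 libraries, so that vehicle F1 stands apart. All 15 homeostatic astrocyte markers were detected in every library, with sums of 5558 to 6337 CPM in vehicle and 6096 to 6407 CPM in PLX3397 libraries.

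On the per-length FPKM scale (the authors' fragments per kilobase of transcript, scaled to library size), 8 of the 10 genes reached a mean of 0.5 and entered the test over 16894 genes. Steap4 and Cd109, at means of 0.183 and 0.485 FPKM, did not. In vehicle libraries Gfap was the most abundant at 79.9 ± 17.1 FPKM (SD, n = 4), followed by Fam107a at 56.4 ± 4.02 and Apod at 30.3 ± 2.27. Gfap and Fam107a overlapped there. Il33 (5.31 ± 0.585), S1pr3 (3.52 ± 0.320) and Aspg (2.51 ± 0.966) came next, with S1pr3 and Aspg overlapping. Lcn2, Cd109, Osmr and Steap4 were between 0.194 and 0.637 FPKM on average, and neighbours in that order overlapped. In PLX3397 libraries Fam107a was the highest, at 87.5 ± 5.92 FPKM against 66.9 ± 3.55 for Gfap, and these 2 genes did not overlap.

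**Figure D1:**
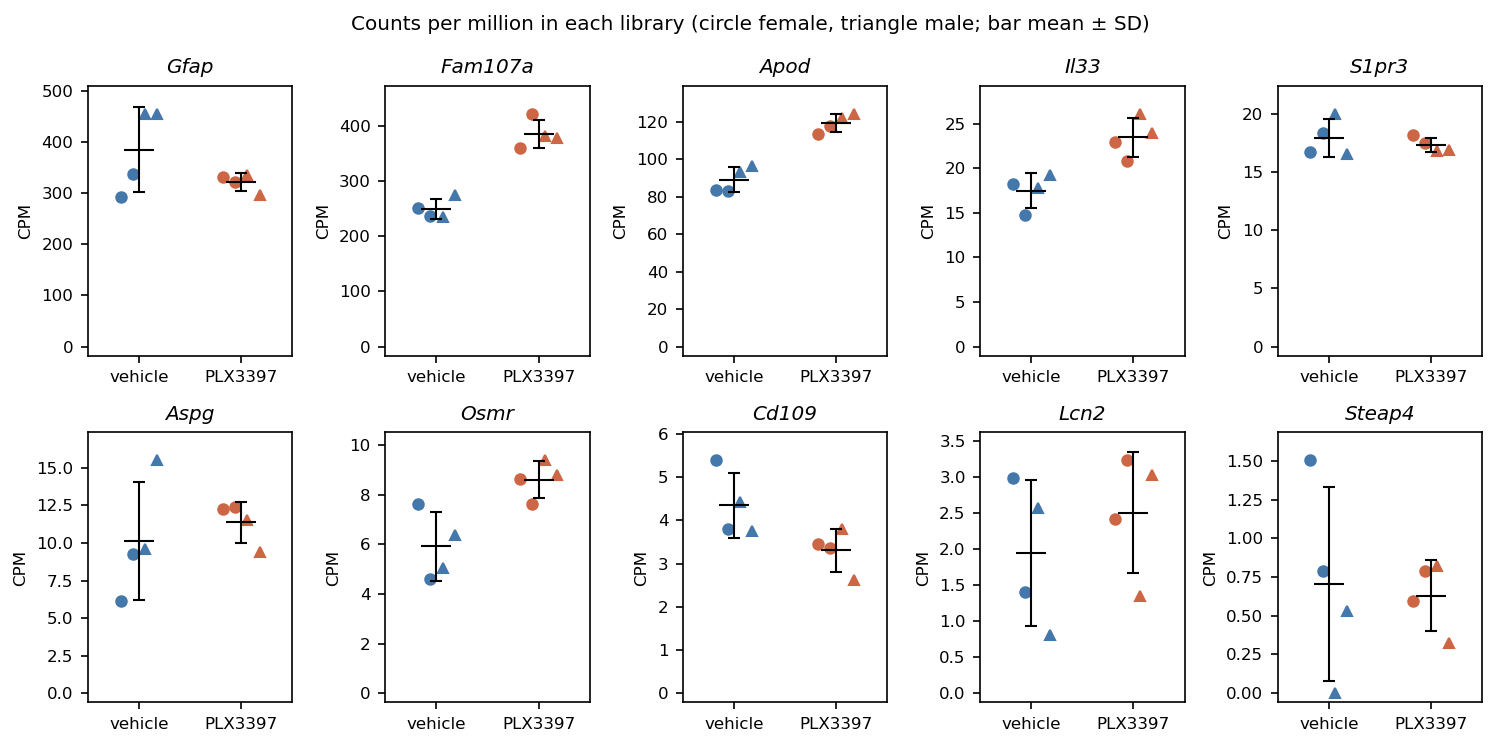
CPM of the 10 genes in each of the 8 libraries; circles are females, triangles males, and bars give the mean ± SD of 4 libraries. In Fam107a, Apod and Il33 all 4 PLX3397 points lie above all 4 vehicle points, in Gfap the males of the vehicle group stand above the other libraries, and the remaining genes overlap.

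Fam107a, Apod and Il33 were higher in every PLX3397 library than in any vehicle library. Fam107a (chromosome 14, 8296274 to 8309795, minus strand, protein-coding) was 251, 238, 234 and 274 CPM in vehicle F1, F2, M1 and M2. In the PLX3397 libraries, given in the same order here and below, it was 360, 422, 381 and 379 CPM. The lowest treated library was thus above the highest control, and the log2 fold change was 0.64 ± 0.07 (standard error), or 1.56-fold.

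Apod, a lipocalin that binds small lipids and is made by glia, perivascular and meningeal cells (chromosome 16, 31296192 to 31314808), was 83.7, 83.1, 93.4 and 96.5 CPM in vehicle libraries in the same order. In PLX3397 libraries it was 114, 118, 122 and 124 CPM. Its spread was the smallest of the 3 relative to the shift, which was 0.43 ± 0.04 on the log2 scale, or 1.35-fold. Il33 (chromosome 19, 29925114 to 29960718) was 18.3, 14.7, 17.7 and 19.2 CPM in vehicle libraries. It was 22.97, 20.8, 26.1 and 24.0 CPM in PLX3397 libraries, a log2 fold change of 0.43 ± 0.08. Vehicle M2 and PLX3397 F2 came closest to each other.

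Those 3 were also the ones called among the 8 that entered the fit (edgeR's quasi-likelihood test, Benjamini-Hochberg adjusted p under 0.05), against 2.14% of all tested genes in either direction and 0.308% in the upward one. Groups lay apart with the treated side higher in 4.05% of all tested genes. The rule used this comparison, so nothing is read from these counts. Il33 had an edgeR adjusted p of 0.0447 and kept its call in 5 of 19 alternatives. Of the 8 fits without 1 library it was called in 1, that without vehicle F1. Fam107a lost its call without vehicle F1 and PLX3397 M2 together.

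Apod and Il33 are also transcribed by oligodendrocytes, whose summed markers were lower after PLX3397. All 10 oligodendrocyte markers were detected in every library, and their sum was 6412 to 9560 CPM in vehicle and 2121 to 4810 CPM in PLX3397 libraries, with 4 of 10 falling. That count ran from 0 to 8 without 1 library each, being 0 without vehicle M1, PLX3397 F2 or PLX3397 M1 and 8 without PLX3397 F1. The 8 meningeal fibroblast markers summed to 291 to 389 CPM in vehicle and 387 to 547 CPM in PLX3397 libraries, all 8 detected in every library. Slc6a13 (0.73, edgeR adjusted p = 0.0218) and Aldh1a2 (0.35, adjusted p = 0.0488) rose among them, the first passing in 3 of 8 fits without 1 library and the second in 0 of 8. The part of these cells in the levels of Apod, Il33 and Osmr was not tested.

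**Figure D2:**
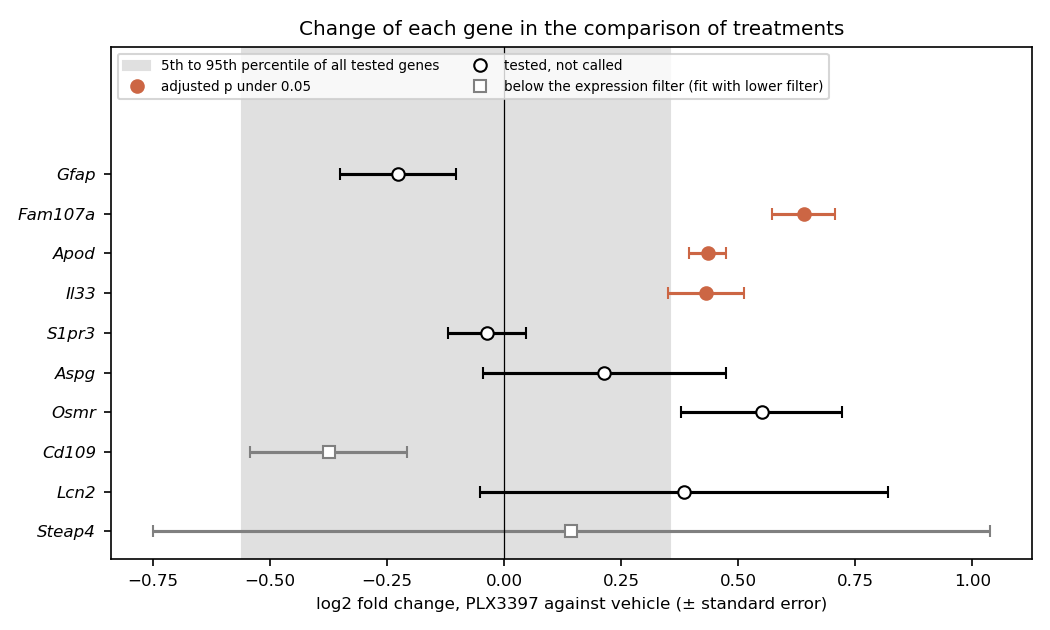
Log2 fold change of PLX3397 against vehicle for each gene, with its standard error, beside the range from the 5th to the 95th percentile of all 16894 tested genes (-0.56 to 0.35). Fam107a, Apod, Il33, Osmr and Lcn2 lie above that range and the error bar of Lcn2 crosses 0; grey squares are the genes below the expression filter.

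Among the receptors, Osmr, which pairs with gp130 to bind oncostatin M (chromosome 15, 6813577 to 6874969), was 7.64, 4.596, 5.04 and 6.38 CPM in vehicle libraries. It was 8.64, 7.61, 9.38 and 8.78 CPM in PLX3397 libraries. Vehicle F1 alone reached the treated range, and the log2 fold change was 0.55 ± 0.17, or 0.74 without that library. On log2(FPKM + 0.5), where the added constant weighs on so low a gene, it was 0.28. Osmr was not called by edgeR (adjusted p = 0.181), whereas DESeq2 called it higher (adjusted p = 0.04998).

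S1pr3, a receptor for the lipid sphingosine 1-phosphate (chromosome 13, 51408639 to 51422797), was 16.7, 18.4, 20.01 and 16.6 CPM in vehicle libraries and 18.2, 17.5, 16.9 and 16.9 CPM in PLX3397 libraries. The groups overlapped throughout, and the difference of -0.04 ± 0.08 was within the spread and turned to 0.04 without vehicle M1. The annotated span of S1pr3 overlaps that of Gm32834 on the other strand, so their reads may be shared.

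Gfap, the intermediate filament of astrocytes (chromosome 11, 102887336 to 102897200), was not higher after PLX3397. It was 293, 338, 455 and 455 CPM in vehicle F1, F2, M1 and M2, and 331, 322, 336 and 297 CPM in the PLX3397 libraries. Both vehicle males were above the other 6 libraries, and the log2 fold change was -0.23 ± 0.12, or -0.13 without PLX3397 M2 and -0.33 without vehicle F1. The same vehicle males held more oligodendrocyte marker transcripts (8533 and 9560 CPM, against 6412 and 6586 CPM in vehicle females). They also held more of 5 red cell genes, all detected in every library, at 198 and 201 CPM against 27.8 to 92.5 CPM elsewhere. The part of these differences in the Gfap level was not tested. Vim, Nes and Synm, which encode other filament proteins of glia, had 0.35, -0.09 and -0.08 (edgeR adjusted p = 0.329, 0.788 and 0.809), and DESeq2 called 0 of these filament genes too.

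Aspg, an asparaginase used as a marker of reactive astrocytes (chromosome 12, 112106679 to 112127559), was 6.13, 9.29, 9.57 and 15.5 CPM in vehicle and 12.3, 12.4, 11.5 and 9.43 CPM in PLX3397 libraries. Vehicle libraries covered the whole treated range, and the log2 fold change of 0.21 ± 0.26 became 0.0042 without vehicle F1 and 0.46 without vehicle M2. Lcn2, which encodes the iron-siderophore carrier lipocalin 2 and is strongly induced in inflamed astrocytes (chromosome 2, 32384633 to 32387797), was 2.99, 1.40, 2.57 and 0.800 CPM in vehicle libraries. It was 2.42, 3.23, 1.35 and 3.02 CPM in PLX3397 libraries, with the lowest and highest values of both groups interleaved. The log2 fold change of 0.38 ± 0.44 became 0.12 without PLX3397 M2, 0.14 without vehicle M2, 0.63 without vehicle F1 and 0.77 without vehicle M1. Its cell-surface receptor gene Slc22a17 fell. It averaged 737 ± 86.6 CPM (SD, n = 4) with vehicle and 473 ± 81.1 CPM after PLX3397 (-0.63 ± 0.09, edgeR adjusted p = 0.014). It was the 1 called of 4 tested genes outside the 10 on the list of lipocalins and lipocalin 2 receptors. Slc22a17 lost its call without vehicle F2, M1 or M2 or PLX3397 M1.

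The genes below the filter were fitted with a lower one, a mean count of 10. Cd109, a membrane-anchored protease inhibitor that binds transforming growth factor beta (chromosome 9, 78615546 to 78716253), was 5.39, 3.81, 4.43 and 3.75 CPM in vehicle and 3.45, 3.35, 3.81 and 2.63 CPM in PLX3397 libraries. PLX3397 M1 overlapped the controls, and the log2 fold change was -0.37 ± 0.17, or -0.13 without vehicle F1 and PLX3397 M2. Steap4, a metalloreductase (chromosome 5, 7960457 to 7982213), was 1.503, 0.786, 0 and 0.533 CPM in vehicle and 0.593, 0.787, 0.819 and 0.322 CPM in PLX3397 libraries. Vehicle M1 was listed at 0, where a count of 0 allows up to 0.0554 CPM by counting error only. The fit gave 0.14 ± 0.89 for Steap4, and 3 of 16 alternatives gave a negative sign, so no direction is given.

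Among the lists of reactive astrocyte genes, Serpina3n, Cp and Serping1 rose. Which cells of the bulk tissue held these transcripts was not tested. Of 13 pan-reactive genes 6 were among the 10 described and are left aside here. Of the others 6 were tested, 2 rose and 0 fell, against 0.308% and 1.83% of all tested genes that rose and fell. Their median was 0.32, and that of all tested genes was -0.0025. The lists too were chosen with earlier results of these data known, so these counts are a description and no independent test. Those that rose were Serpina3n, a secreted protease inhibitor (48.2 ± 2.96 to 71.0 ± 5.02 CPM; 0.57 ± 0.07, edgeR adjusted p = 0.0124), and Cp, the copper-carrying ferroxidase ceruloplasmin (20.6 ± 0.600 to 25.1 ± 1.55 CPM; 0.30 ± 0.06, adjusted p = 0.0434). The call of Serpina3n held in 17 of 19 alternatives and in all 8 fits without 1 library, and that of Cp in 6 of 19 and in 0 of those 8. Neither Vim (0.35) nor the small heat shock protein gene Hspb1 (0.41, adjusted p = 0.35) passed.

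Of 12 genes linked to lipopolysaccharide, 10 were tested and the complement inhibitor Serping1 rose (19.9 ± 0.629 to 26.1 ± 1.32 CPM; 0.40 ± 0.06, edgeR adjusted p = 0.022), with a median of 0.14. Serping1 passed in 1 of 8 fits without 1 library, that without PLX3397 F1. Amigo2 had 0.31 and Fkbp5 0.39, whereas the class I gene H2-D1 had -0.27 (edgeR adjusted p = 0.099, 0.31 and 0.279), and DESeq2 called Amigo2 higher. Of 12 genes linked to ischaemia only 4 were tested, Emp1 (0.45) among them, and the median was 0.05. On this list edgeR and DESeq2 called 0 and 0 had an unadjusted p under 0.05, with edgeR adjusted p from 0.362 to 0.908. Of 15 homeostatic astrocyte genes 1 rose, Glul, which encodes glutamine synthetase (999.7 ± 39.2 to 1201 ± 77.8 CPM; 0.27 ± 0.05, adjusted p = 0.0316). Glul passed in 1 of 8 fits without 1 library, that without PLX3397 M1. The list median was 0.04, and the water channel gene Aqp4 had -0.39 (adjusted p = 0.113, and called lower by DESeq2).

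**Figure D3:**
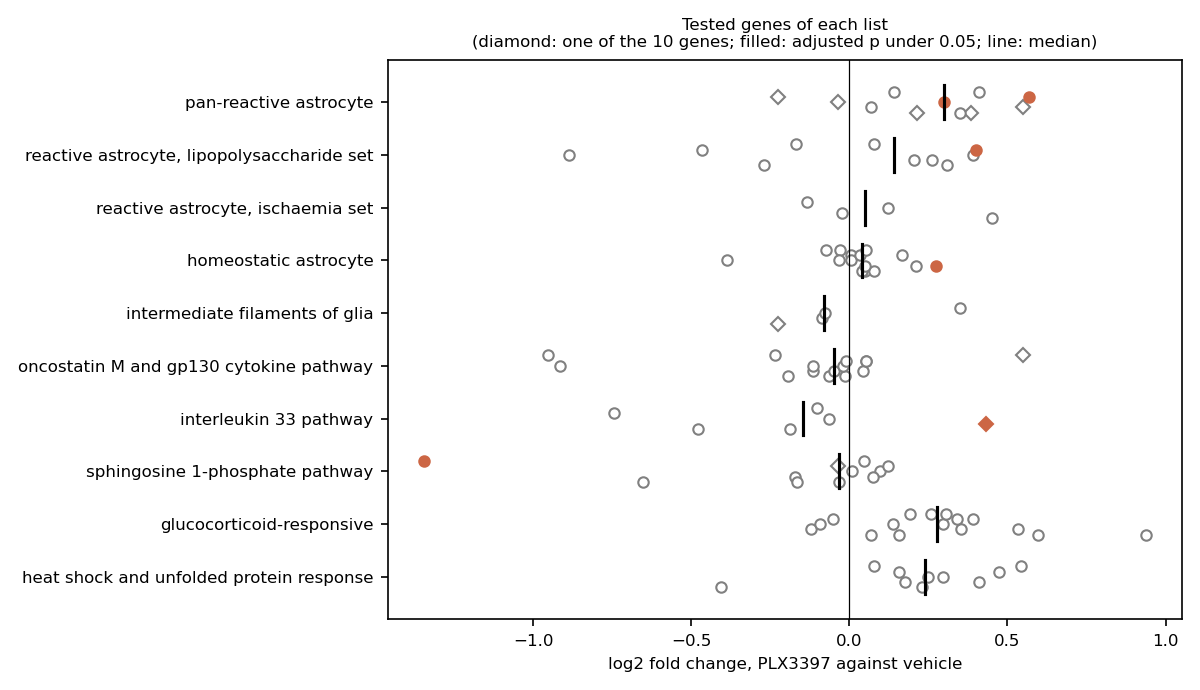
Log2 fold change of PLX3397 against vehicle for every tested gene of 10 lists; filled points passed the test, diamonds are genes described one by one, and the line is the list's median. Medians, which here include the diamonds, of the pan-reactive (0.30), glucocorticoid-responsive (0.28) and heat shock (0.24) lists lie right of 0, and that of homeostatic astrocyte genes is 0.04.

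Most ligand and receptor partners of the 10 genes had no call or a negative sign. In the oncostatin M and gp130 pathway 14 genes besides Osmr were tested and edgeR called 0, with a median of -0.06. Of these, 5 had an unadjusted p under 0.05, against 2743 of all 16894 tested genes. DESeq2, which called 1097 of all tested genes, called Ptpn11 lower. Ptpn11, Tyk2, Pias3 and Il6ra, which act in signalling or as the interleukin 6 receptor, had -0.12, -0.24, -0.19 and -0.95 (edgeR adjusted p = 0.089, 0.155, 0.162 and 0.255). The ligand gene Osm was listed at a count of 8 in 5 libraries and 0 in the other 3, so low counts here may not be single reads. In the interleukin 33 pathway 5 genes besides Il33 were tested and edgeR called 0. Of these, 3 had an unadjusted p under 0.05, against 2743 of all 16894 tested genes. All 5 had a negative sign, against 8546 of the 16894. Among them were the co-receptor gene Il1rap (-0.48) and the kinase gene Irak4 (-0.74), with edgeR adjusted p = 0.0761 and 0.139, both called lower by DESeq2. The receptor gene Il1rl1, under the filter and named after its values were seen, was at 0.167 to 0.683 CPM in the 4 vehicle libraries and was listed at 0 in all 4 PLX3397 libraries.

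Of 8 genes for microglial inducers and their receptors 5 were tested and edgeR called 0, with a median of -0.48. Of these, 3 had an unadjusted p under 0.05, against 2743 of all 16894 tested genes. DESeq2 called C1qa, Tnfrsf1b and Il1rap lower. C1qa, a chain of the complement starter C1q, had -3.85 ± 0.76 (edgeR adjusted p = 0.052) and the receptor gene Tnfrsf1b -0.52 ± 0.10 (adjusted p = 0.0538). The receptor gene Il1r1 had a positive sign (0.31 ± 0.18, edgeR adjusted p = 0.461). Il1a was 0.363 to 0.776 CPM in vehicle and 0 to 0.216 CPM in PLX3397 libraries. Il1b was not lower, at 0 to 0.200 CPM in vehicle and 0 to 0.268 CPM in PLX3397 libraries, and Tnf was listed at 0 in all 8. In the sphingosine 1-phosphate pathway 10 genes besides S1pr3 were tested and S1pr5, the receptor carried by oligodendrocytes, fell (-1.34 ± 0.23, adjusted p = 0.0348), passing in 1 of 8 fits without 1 library, that without PLX3397 F1. S1pr1 had 0.10 and the transporter gene Mfsd2a -0.65 (edgeR adjusted p = 0.356 and 0.117), and DESeq2 called Mfsd2a lower. In the family of CD109 and its partners, Tgfbr1, a receptor of transforming growth factor beta, fell from 24.6 ± 1.87 to 13.5 ± 1.25 CPM (-0.86 ± 0.09, adjusted p = 0.00544), a call that held in all 19 alternatives. The related genes C4b and A2m had 0.44 and 0.21 (edgeR adjusted p = 0.138 and 0.547), and DESeq2 called C4b higher and the receptor gene Tgfbr2 lower. Among the STEAP family, Steap3 had 0.24 and Steap2 -0.25 (edgeR adjusted p = 0.382 and 0.475).

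Stress genes beside Fam107a had mostly positive signs without a call by edgeR. Of 16 glucocorticoid-responsive genes all were tested and edgeR called 0. A positive sign was found in 13, against 8348 of all 16894 tested genes. The median was 0.28, and it ran from 0.12 without PLX3397 M2 to 0.36 without vehicle F1. Of the 16 genes, 5 had an unadjusted p under 0.05, against 2743 of all 16894 tested genes. DESeq2 called 3 higher, Plin4, Mt1 and Zbtb16, against 342 of all tested genes. Zbtb16 had 0.94 ± 0.34, Plin4 0.53 ± 0.14, and the metallothionein genes Mt1 and Mt2 0.35 ± 0.09 and 0.30 ± 0.11 (edgeR adjusted p = 0.235, 0.121, 0.104 and 0.238). The summed level of the 16 genes was 622 to 821 CPM in vehicle, highest in vehicle F1. It was 806 to 941 CPM in PLX3397 libraries, highest in PLX3397 M2. Of 12 heat shock and unfolded protein response genes 10 rows were tested and edgeR called 0, with a median of 0.24. Of these, 4 had an unadjusted p under 0.05, and DESeq2 called Hsph1 and Hspa5 higher. These chaperone genes Hsph1 and Hspa5 had 0.30 and 0.23 (edgeR adjusted p = 0.086 and 0.131).

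Differences between the sexes were not used to choose the genes. Of the 8 tested, edgeR called 0 for a difference of the PLX3397 effect between females and males, against 0.077% of all tested genes. An unadjusted p under 0.05 was held by 1 of the 8, Gfap, and by 1015 of all 16894 tested genes. The effect on Gfap was 0.07 ± 0.09 in females and -0.53 ± 0.09 in males, a difference of 0.60 ± 0.12 (edgeR adjusted p = 0.41). The adjusted p ran from 0.0116, with DESeq2, to 0.721 over 17 alternatives, and the difference was positive in all of them. Both PLX3397 males (336 and 297 CPM) were below both vehicle males, while females of the treatments overlapped. Aspg had 0.70 ± 0.29 in females and -0.26 ± 0.28 in males (difference 0.96 ± 0.40, adjusted p = 0.819). Fam107a (0.70 and 0.58), Apod (0.50 and 0.37), Il33 (0.43 and 0.43) and Osmr (0.44 and 0.67) had the same sign in both sexes. So had Lcn2, with wide errors (0.39 ± 0.66 and 0.38 ± 0.67). The differences of these genes between the sexes did not pass (edgeR adjusted p from 0.844 to 0.999).

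**Figure D4:**
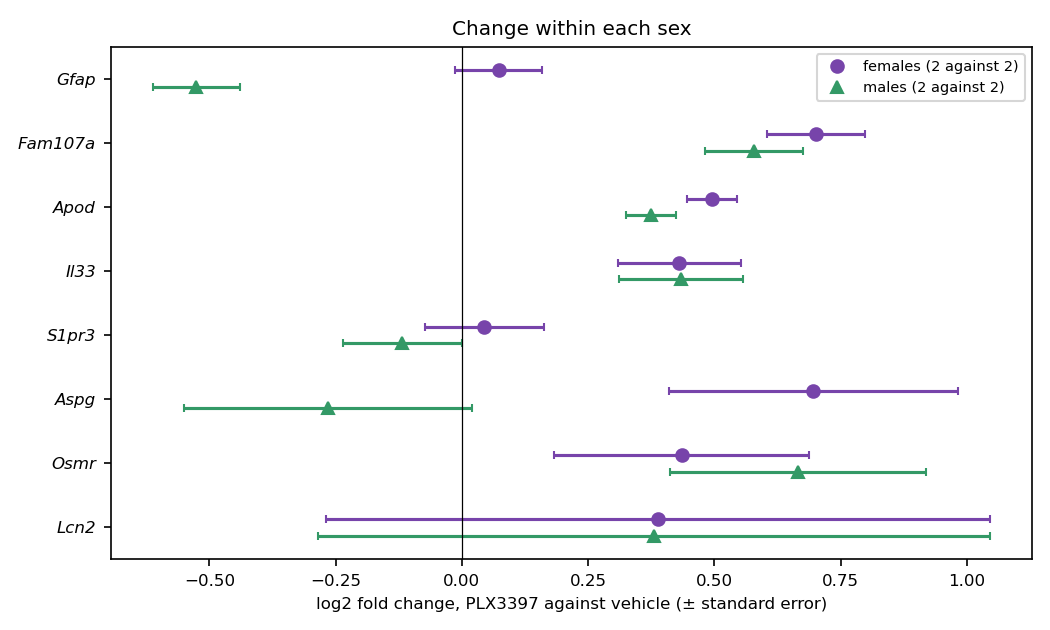
Log2 fold change of PLX3397 against vehicle within females (circles) and males (triangles) for the 8 tested genes, with standard errors from a model of 4 groups of 2. Gfap is at 0.07 in females and -0.53 in males, while Fam107a, Apod, Il33, Osmr and Lcn2 lie right of 0 in both. The error bars of Lcn2 cross 0.

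For females minus males, with treatment held constant, edgeR called 0 of the 8 genes, against 0.0592% of all tested genes, and DESeq2 also called 0. Apod alone of the 8 had an unadjusted p under 0.05 (-0.14 ± 0.04, edgeR adjusted p = 0.933), as had 843 of all 16894 tested genes. For Apod both males of each group were above both females of that group. Gfap had -0.24 ± 0.12 and Fam107a -0.01 ± 0.07 (adjusted p = 0.933 and 0.997).

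The genes did not vary as one block among animals. As deviations of log2(CPM + 0.5) from the mean of each treatment group, the closest of the 45 pairs over 8 libraries was Gfap with Aspg (Pearson r = 0.82), followed by Osmr with Il33 (0.76) and Gfap with Apod (0.74). Gfap and Fam107a had 0.13, Gfap and Lcn2 -0.46, and Osmr and S1pr3 -0.73. The points share libraries, depth and 2 group means, so these are descriptions with no test.

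Among 12591 or 12592 other genes with a mean of at least 1 FPKM, those closest to Gfap in the same measure were Ahcyl1 (0.99), Pdgfb (0.97) and Ntrk2 (0.96). Closest to Apod were Slc13a3 (0.996), the astrocyte glutamate transporter gene Slc1a3 (0.99) and the pseudogene Rpl9-ps4 (0.98), whose reads may be shared with its parent gene. Closest to Fam107a were B3gat3 (0.97), B3gat2 (0.96) and Orai3 (0.96), and closest to Il33 Ankrd13b (0.99), Ano10 (0.97) and Tmem14c (0.97). For Osmr they were Rcn3 (0.97) and Nfe2l2 (0.95), and for Aspg Heph (0.97), Lbh (0.97) and Dvl3 (0.97). For Lcn2 they were Polr3k (0.96), Mrpl34 (0.96) and Zscan26 (0.95), and for S1pr3 Ric3 (0.98), Ddx46 (0.95) and Zfp825 (0.94). Each was picked for the highest r among that many genes over only 8 libraries, a choice that gives high values among unrelated genes too. These are descriptions with no test.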

How the data were processed

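Whole-number counts per gene and FPKM values were deposited by the authors in 1 table, as its file headers show. Build mm10 and the tools HISAT2, StringTie, bcl2fastq 2.0, limma and DESeq2 come from the submitters' processing notes, which give no roles. For the counting tool, annotation release and strand setting: not given in the sources used here. A deposited FPKM of 0.0001 stands for a count of 0.

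CPM were computed from the deposited counts. The test across all genes was the quasi-likelihood test of edgeR (version 4.0.16 under R 4.3.3, TMM scaling, two-sided, Benjamini-Hochberg adjustment over the 16894 genes averaging 0.5 FPKM or more, threshold 0.05). Treatment was fitted with sex as a covariate, sex with treatment, and their interaction in a model with 4 groups. Standard errors were taken from the fitted change and its F statistic, as change over root F. Libraries of a group differed by more than sampling noise. With 4 libraries a group, p-values measure the spread between these samples.

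The 10 genes and the lists were chosen with earlier results of these data known. Named genes are the 10, up to 4 other tested genes with the smallest p from each list described, and the 3 genes closest in pattern to each tested one, of which 1 is not reported here. Alternatives were other filters, scalings and covariates, limma-trend (limma 3.58.1) on log2(FPKM + 0.5) and log2(FPKM + 0.1), DESeq2 1.42.0, the replicate label as a block and leaving out libraries. The fits were tested on simulated counts. Total counts bound the precision, and a count of 0 allows 3 counts. GENCODE vM21 gave the same span for 7 of the 10 genes.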

Additional observations from a re-analysis of the deposited data

How the results depend on the processing

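In the comparison of treatments 362 genes passed, 52 higher and 310 lower. DESeq2 called 1097 (342 higher, 755 lower), the fit without vehicle F1 and PLX3397 M2 together 123, and the fits without 1 library each 138 to 361. With the replicate label as a block the count was 79, Tgfbr1 passed, and Il33, Serpina3n, Cp, Serping1, Glul, S1pr5, Slc22a17, Slc6a13, Aldh1a2 and Flt1 did not (adjusted p from 0.0713 for Serpina3n to 0.138 for Cp). Under the block 6 of 12 microglial, 4 of 8 oligodendrocyte precursor and 0 of 10 oligodendrocyte markers fell. Libraries with the same label had correlations of their deviations from 0.0297 to 0.101, and those with different labels from -0.0985 to 0.0884. The same label also means the same sex, so these values cannot show whether labels pair animals. The main fit did not pair them. For the difference between the sexes 13 genes passed, against 143 with DESeq2 and 0 to 19 without 1 library each, the 0 being without PLX3397 F2, where 1103 had an unadjusted p under 0.05, and the count without PLX3397 F1 being 2. For females against males 10 passed, against 52 with DESeq2. The sign of the treatment difference held in every alternative for 8 of the 10 genes, and turned in 1 of 19 for S1pr3 and in 3 of 16 for Steap4. With 2 animals of each sex in a group, and Steap4, Cd109, Osmr and Lcn2 under 10 CPM, small differences in these genes were not detectable with these samples.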

Other observations

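Cell types other than those above were measured in the same libraries. The 8 neuron markers summed to 3948 to 4140 CPM in vehicle and 4185 to 4453 CPM in PLX3397 libraries. Of these 8, edgeR called 0 and 4 had an unadjusted p under 0.05, with a median of 0.12. DESeq2 called Snap25 and Slc17a6 higher (0.15 and 0.20, edgeR adjusted p = 0.0571 and 0.124). Of 8 endothelial genes Flt1, a receptor of vascular endothelial growth factor, rose (0.25 ± 0.05, edgeR adjusted p = 0.0464), passing in 0 of 8 fits without 1 library, and the list median was 0.08. Of 7 pericyte and smooth muscle genes edgeR called 0, and 2 had an unadjusted p under 0.05, against 2743 of all 16894 tested genes. The median of the 7 was -0.09, and Tagln had -0.66 (edgeR adjusted p = 0.0787, called lower by DESeq2). Genes of tanycytes and ependymal cells, the cells that line the ventricle beside the arcuate nucleus, had 0 calls in 8 with edgeR and with DESeq2, 0 at an unadjusted p under 0.05 and a median of -0.01, with Dio2 at 0.38 (adjusted p = 0.464). Of 8 oligodendrocyte precursor genes 6 fell (4 to 6 without 1 library each), Vcan (-1.27) and Gpr17 (-2.55) among them (adjusted p = 0.0046 each), calls that held in all 19 alternatives.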
